A study of Arabidopsis thaliana with 6 samples.

Results

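This is an account of 35 genes of fatty acid and seed oil synthesis in Arabidopsis thaliana, measured 6 days after pollination in whole seeds with and without a transgene for auxin production. The genes were chosen by locus from the known steps of the pathway, not by how they differed between the seeds. Earlier results of these data were known when they were chosen. They run from pyruvate dehydrogenase of the plastid to the acyltransferases that complete triacylglycerol. All 35 were found among the 33323 loci of the deposited table, and all 35 passed the filter on low values. DD25::IaaH seeds (3 libraries) came from plants, in the Col-0 background, that carry the bacterial gene IaaH behind the DD25 promoter. IaaH turns indole-3-acetamide into auxin, and DD25 is known as a gene of the central cell, the ovule cell from which endosperm arises. WT seeds (3 libraries) came from Col-0 plants without the transgene. Plants of both kinds were pollinated by hand with their own pollen, and seeds were taken out of the siliques whole. The labels do not say how many transgenic lines were used or how many plants gave a library, and the IaaH transcript was not analysed here.

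Seed oil is made in 2 compartments. In the plastid, pyruvate dehydrogenase makes acetyl-CoA, acetyl-CoA carboxylase turns it into malonyl-CoA, and fatty acid synthase builds the chain on acyl carrier protein (ACP). A desaturase and a thioesterase then finish and release the chain, which is exported as an acyl-CoA. In the endoplasmic reticulum (ER) the chains are desaturated further or lengthened, and acyltransferases join them to glycerol to give triacylglycerol, the storage oil of the seed. The transcription factor WRI1 is known to activate many of the plastid genes through a promoter element called the AW-box. In Arabidopsis seeds most oil accumulates in the embryo during maturation, and the endosperm also holds some.

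RNA levels are in RPKM, a read count scaled to gene length and library size, so that levels of different genes can be compared per length. Library depth, rebuilt from the steps between low RPKM values, was 6.50 to 10.8 M reads (M for mega) in DD25::IaaH and 8.95 to 17.8 M reads in WT. The fewest reads behind any value of these genes were 79, for FAE1 in WT 3. Across genes, which are no replicates of each other, libraries correlated at 0.958 to 0.978 within a genotype and at 0.883 to 0.917 between genotypes. Of the annotated pseudogenes in the table, 21.3% to 32.9% had a value above 0 in the DD25::IaaH libraries and WT 3. In WT 1 and WT 2 these shares were 82.1% and 63.8%. Results were therefore also computed without WT 1 and WT 2 together, which left WT 3 as the only WT library. That fit holds no spread within WT, so its adjusted p values are not given. Counts of alternative settings include it. In whole seeds, fewer cells of a type and less RNA per cell cannot be told apart.

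The plastid part of the pathway lay lower in DD25::IaaH seeds by a modest amount at nearly every step, while single genes of the ER part went in opposite directions. In limma's test over all 20880 genes, 6 of the 35 genes fell, namely CAC3, MOD1, FATA1, FATA2, GPAT9 and DGAT1, 1 rose, namely FAE1, and 28 were not called. Of all tested genes 15% were called in either direction. The share that fell, 17.1%, stands beside 6.72% of all tested genes, and the share that rose, 2.86%, beside 8.25%. The median log2 fold change (DD25::IaaH minus WT) of the 35 genes was -0.28, against 0.03 for all tested genes and 0.045 for the 12110 tested genes at least as high as the lowest of the 35. It was below 0 for 29 of the 35 genes (82.9%), against 46.5% of all tested genes and 44% of those 12110. Of those 12110 genes 7.09% fell. The 35 genes come from the same 6 libraries and 1 pathway, so they are not 35 separate observations.

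Single-gene calls are a coarse measure of shifts of this size: CAC3 was called at a log2 fold change of -0.385, and FAB1 was not called at -0.39. In simulated data the same test found 0.61% of genes given a log2 change of 0.5, 31.2% of those given 1 and 99.6% of those given 2. The simulation gave all its 31201 genes the same dispersion and changed few of them, so these rates need not hold for the 35 genes. They may be too low for them, since CAC3 and GPAT9 were called at log2 fold changes of -0.385 and -0.56. A missing call at a log2 fold change near -0.3 is not read as the absence of a difference. By the values themselves, every DD25::IaaH library lay below every WT library for 24 of the 35 genes (68.6%), against 14.9% of all tested genes. For 2 genes, FAE1 and PDAT1, every DD25::IaaH library lay above every WT library (5.71%, against 18.4% of all tested genes). The groups overlapped for the other 9. The tested genes include many of lower level than the 35, and these shares of separate groups were not computed for genes of like level.

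**Figure D1:**
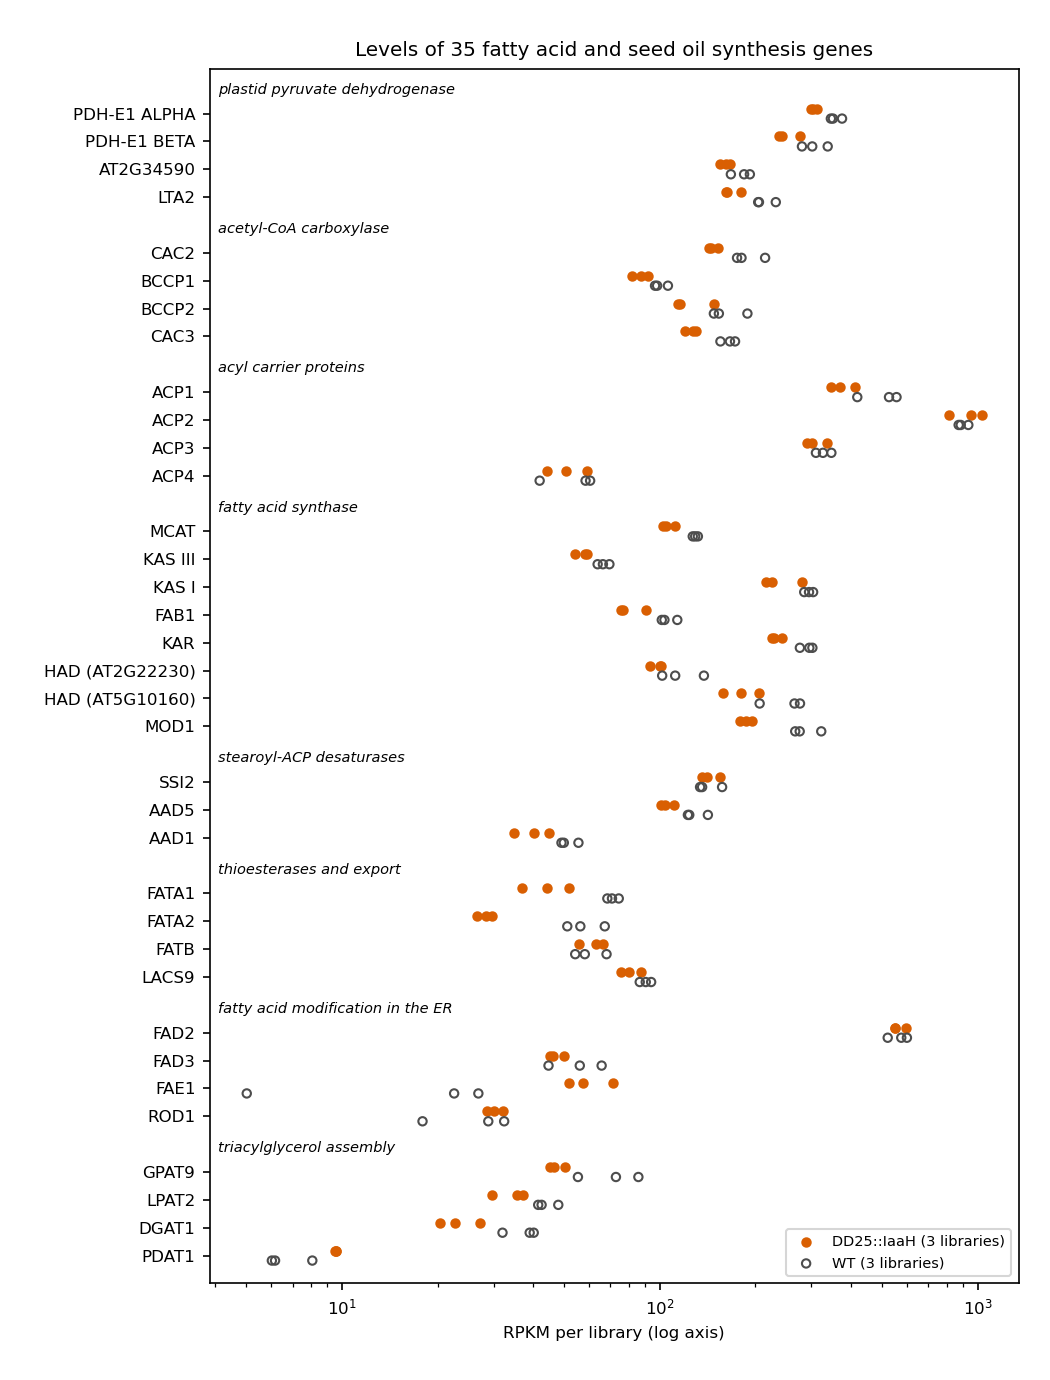
RPKM of each of the 35 genes in each library on a log axis, ordered by pathway step from the plastid (top) to triacylglycerol assembly (bottom); filled points are the 3 DD25::IaaH libraries and open points the 3 WT libraries. The filled points lie left of all open points for 24 genes and right of them for FAE1 and PDAT1, and levels run from 5.02 RPKM (FAE1 in WT 3) to 1031 RPKM (ACP2 in DD25::IaaH 3).

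Place on the chromosomes moved with some of these calls. In earlier work on these data, 4 ranges of loci were drawn around genes that were near-absent in DD25::IaaH, on chromosome 2 (AT2G02360 to AT2G15292), chromosome 3 (AT3G16400 to AT3G61020), chromosome 4 (AT4G01593 to AT4G37320) and chromosome 5 (AT5G48412 to AT5G66053). Tested genes inside them fell in 11.9% and rose in 8.74% of cases, against 3.99% and 7.99% for tested genes outside them. The near-absent genes that set the ranges are counted inside, so the share that fell there is raised in part by how the ranges were drawn. Of the 35 genes 8 lay inside, and these held MOD1, FATA1, FATA2, GPAT9 and FAE1, which is 5 of the 7 calls. The other 3 inside were LTA2, ACP4 and LPAT2. The 27 genes outside held the other 2 calls, CAC3 and DGAT1, and their median log2 fold change was -0.24, against -0.465 for the 8 inside. Of those 27, 22 had a log2 fold change below 0, and 18 had every DD25::IaaH library below every WT library. With the test run again on genes outside the ranges alone, DGAT1 was the 1 gene of the 27 that fell. The part of these ranges in the results was not tested.

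**Figure D2:**
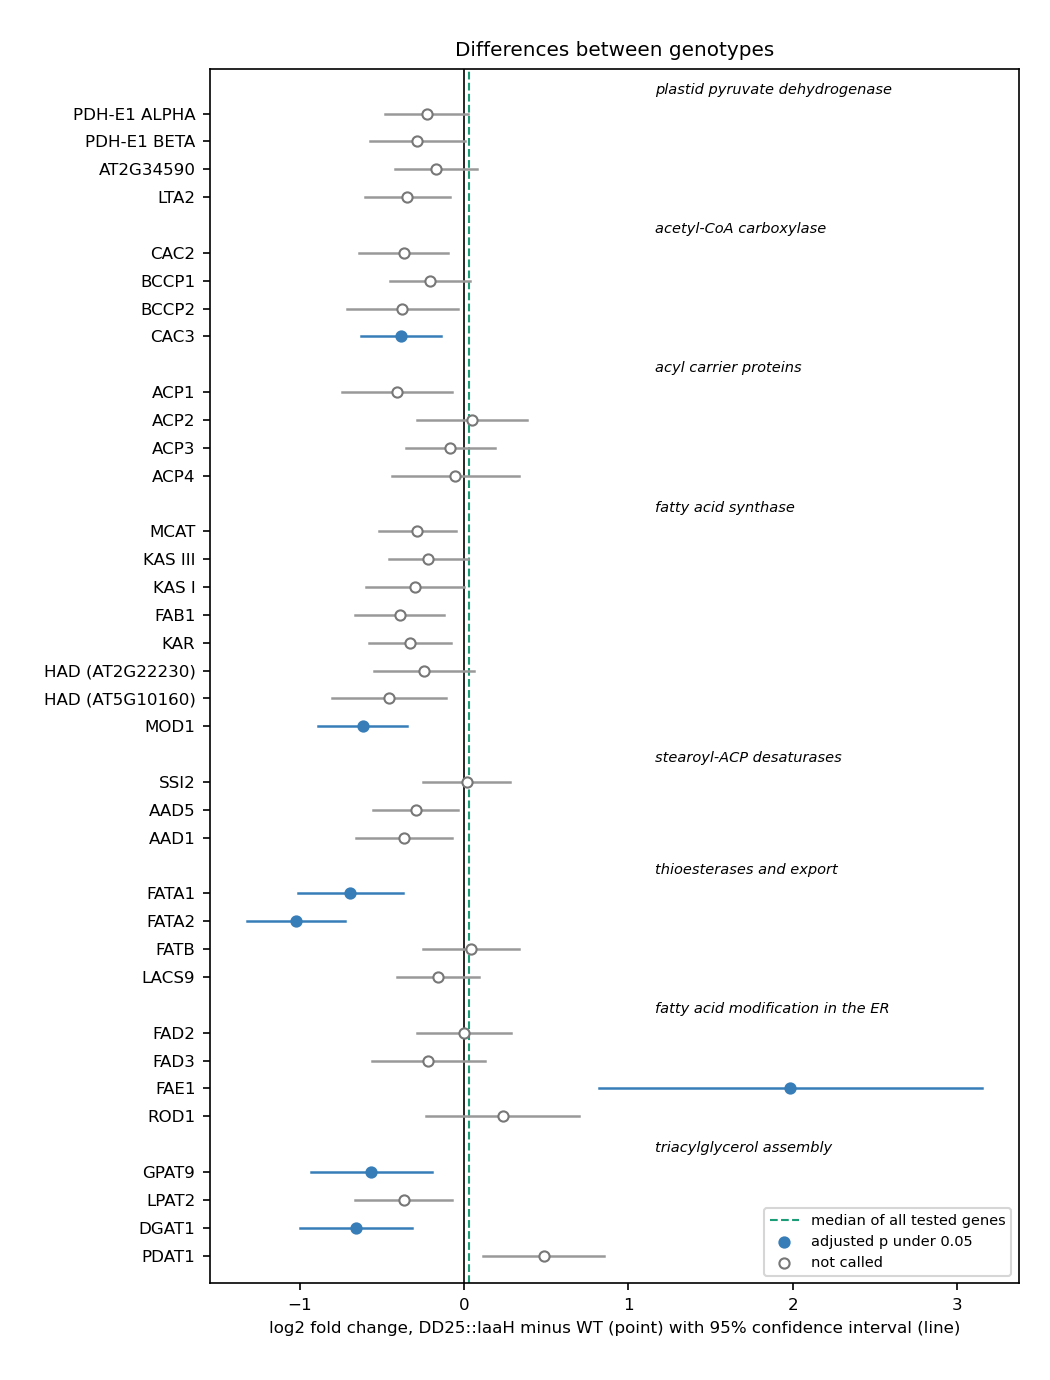
Log2 fold change of each gene, DD25::IaaH minus WT on the log2(RPKM + 0.5) scale, with its 95% confidence interval, in the same order; filled points passed the limma test and the dashed line is the median of all tested genes. Points of the plastid steps sit mostly between -0.6 and 0, FATA2 lies farthest left at -1.02 and FAE1 farthest right at 1.99.

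Plastid pyruvate dehydrogenase makes the acetyl-CoA from which fatty acids are built. None of the 4 genes chosen for this step was called, and all 4 had every DD25::IaaH library below every WT library. PDH-E1 ALPHA (AT1G01090), the alpha subunit of the first enzyme of the complex, had 304, 313 and 299 RPKM in DD25::IaaH 1 to 3, against 351, 375 and 346 RPKM in WT 1 to 3. Its groups were apart by more than the spread within either, yet its adjusted p in the limma test was 0.218, at a log2 fold change of -0.23 ± 0.11 (SE). The other 3 genes, PDH-E1 BETA and AT2G34590 for the beta subunit and LTA2 for the acetyltransferase, had log2 fold changes of -0.34 to -0.17. PDH-E1 BETA overlaps the locus AT1G30110. The RPKM summed over the 4 genes averaged 886 ± 43.1 in DD25::IaaH and 1059 ± 67.3 in WT (SD, n = 3 each). Further genes of the complex, EMB3003, LPD1 and LPD2, were placed with carbon supply to the plastid and are not in this sum. None of them was called, at log2 fold changes of -0.247 for EMB3003, -0.355 for LPD1 and -0.168 for LPD2. Every DD25::IaaH library lay below every WT library for EMB3003 and LPD1, while the groups overlapped for LPD2.

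Acetyl-CoA carboxylase, which commits carbon to fatty acids, was lower at all 4 of its measured nuclear genes, with 1 call. CAC3 (AT2G38040), the alpha subunit of the carboxyltransferase, had 128, 130 and 120 RPKM in DD25::IaaH, against 166, 173 and 155 RPKM in WT. The groups did not overlap, and the log2 fold change was -0.385 ± 0.11 (SE) with an adjusted p of 0.0433 in the limma test. This call is weak. It was made in 8 of 19 alternative settings and was lost when any 1 library other than WT 3 was left out, with adjusted p up to 0.157. CAC3 also overlaps the locus AT2G38050 on the chromosome, and how such reads were assigned is not given in the sources used here.

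CAC2 (AT5G35360), the biotin carboxylase and the highest of this step, had 143, 153 and 145 RPKM in DD25::IaaH, against 181, 215 and 175 RPKM in WT. All 3 DD25::IaaH libraries lay lower, but its adjusted p of 0.0754 in the limma test missed the threshold at a log2 fold change of -0.37 ± 0.12 (SE). The biotin carrier genes BCCP1 and BCCP2 were also lower in every DD25::IaaH library, with log2 fold changes of -0.21 and -0.38. CAC2 and BCCP2 overlap neighbouring loci. BCCP1 made up 41.0% ± 3.56 of the summed BCCP RPKM in DD25::IaaH and 38.2% ± 1.98 in WT (SD, n = 3 each), and these shares overlapped.

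Acyl carrier proteins hold the growing chain, and none of their 4 genes was called. ACP2 (AT1G54580), the highest gene of all 35, had 957, 811 and 1031 RPKM in DD25::IaaH, against 936, 885 and 872 RPKM in WT. Its groups overlapped, and the 95% interval of its log2 fold change ran from -0.28 to 0.38. ACP1 (AT3G05020) was the gene of this step with separate groups, at 375 ± 32.9 RPKM in DD25::IaaH and 500.4 ± 72.5 RPKM in WT (SD, n = 3 each), and its adjusted p in the limma test was 0.106. ACP1 overlaps the locus AT3G05010 on the chromosome. ACP3 and ACP4 had log2 fold changes of -0.08 and -0.05 with overlapping groups.

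Fatty acid synthase lengthens the chain by repeated rounds of condensation, reduction and dehydration. For all 8 of its genes every DD25::IaaH library lay below every WT library, and the RPKM summed over them averaged 1183 ± 46.8 in DD25::IaaH and 1543 ± 96.0 in WT (SD, n = 3 each). One of the 8 was called. MOD1 (AT2G05990), the enoyl-ACP reductase that ends each round, had 179, 195 and 187 RPKM in DD25::IaaH, against 276, 322 and 267 RPKM in WT. The lowest WT library stood above the highest DD25::IaaH library by more than the spread within DD25::IaaH. The log2 fold change was -0.62 ± 0.12 (SE) with an adjusted p of 0.0093 in the limma test. MOD1 fell with each single library left out, and its log2 fold change was -0.51 without WT 1 and WT 2 together.

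KAS I (AT5G46290), which carries most of the condensations and was the highest of this step, had 226, 280 and 216 RPKM in DD25::IaaH, against 285, 304 and 295 RPKM in WT. DD25::IaaH 2 came close to the WT libraries, and the adjusted p in the limma test was 0.171 at a log2 fold change of -0.30. FAB1 (AT1G74960), the condensing enzyme that takes palmitate to stearate, had the lowest adjusted p of the genes without a call, 0.0595, with 81.0 ± 8.46 RPKM in DD25::IaaH and 106 ± 6.48 RPKM in WT (SD, n = 3 each). The remaining 5 were MCAT, which loads malonate onto ACP, KAS III, which starts the chain, the reductase KAR and the dehydratase genes AT2G22230 and AT5G10160. Their log2 fold changes ran from -0.46 for AT5G10160 to -0.22 for KAS III. KAR and both dehydratase genes overlap a neighbouring locus.

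Stearoyl-ACP desaturases place the first double bond, and none of the 3 was called. SSI2 (AT2G43710), the highest of them, had 141, 155 and 136 RPKM in DD25::IaaH, against 136, 134 and 157 RPKM in WT. Its groups overlapped fully, and the 95% interval of its log2 fold change ran from -0.25 to 0.28. AAD5 and AAD1 were lower in every DD25::IaaH library, with log2 fold changes of -0.295 and -0.365 and adjusted p of 0.121 and 0.10 in the limma test.

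The thioesterases that end synthesis held the lowest adjusted p of the whole set, for a gene of the oleoyl-specific enzymes. FATA2 (AT4G13050) had 28.5, 29.6 and 26.6 RPKM in DD25::IaaH, against 67.2, 56.3 and 51.2 RPKM in WT. The 3 DD25::IaaH libraries lay within a narrow band far under the lowest WT library. The log2 fold change was -1.02 ± 0.13 (SE) with an adjusted p of 0.000955 in the limma test, and FATA2 was called in all 18 alternative settings that held it. FATA1 (AT3G25110), its paralog, had 36.8, 52.0 and 44.2 RPKM in DD25::IaaH, against 70.8, 68.4 and 74.3 RPKM in WT. These groups did not overlap either, with DD25::IaaH 1 lowest. Its log2 fold change was -0.69 ± 0.14 (SE) with an adjusted p of 0.0116 in the limma test, and up to 0.0431 with single libraries left out.

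FATB (AT1G08510), the thioesterase that prefers palmitoyl chains, had 66.5, 63.0 and 55.9 RPKM in DD25::IaaH, against 58.1, 54.2 and 68.0 RPKM in WT. Its groups overlapped, and the 95% interval of its log2 fold change ran from -0.25 to 0.335. The level of FATA1 and FATA2 together over that of FATB was 0.982, 1.30 and 1.27 in DD25::IaaH, against 2.37, 2.30 and 1.85 in WT. The ratio was lower in every DD25::IaaH library than in any WT library, and in DD25::IaaH 1 the FATA genes together did not exceed FATB. This ratio was chosen after its values were seen, and it was not tested. LACS9 (AT1G77590), an acyl-CoA synthetase of the plastid envelope and the highest of this step, had 80.0, 87.6 and 75.3 RPKM in DD25::IaaH, against 86.5, 90.4 and 94.0 RPKM in WT. Its highest DD25::IaaH library passed the lowest WT library, and its log2 fold change was -0.16 ± 0.11 (SE) with an adjusted p of 0.39 in the limma test.

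Over all 27 plastid genes together, the summed RPKM was 4662, 4730 and 4794 in DD25::IaaH, against 5633, 5871 and 5304 in WT. The ratio of the means was 0.844, and the groups did not overlap. Of the 27 genes 4 fell and 0 rose, 24 had a log2 fold change below 0 and 21 had every DD25::IaaH library below every WT library. The step sums differed least for ACP1 to ACP4, with a ratio of 0.938 (DD25::IaaH over WT), and with ACP5 added, a plastid ACP that rose and is not among the 35 genes, the ratio was 1.01. They differed most for the synthase genes and the thioesterase step, with 0.767 and 0.7695.

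Several plastid steps are served by paralogs, and the mix within a family was compared as each gene's share of the family's summed RPKM. Of the transcripts of ACP1 to ACP4, ACP1 held 22.5% ± 0.541 in DD25::IaaH and 28.0% ± 2.49 in WT, and ACP2 held 55.8% ± 1.70 in DD25::IaaH and 50.5% ± 2.35 in WT (SD, n = 3 each). SSI2 held 49.7% ± 1.27 of the SSI2, AAD5 and AAD1 transcripts in DD25::IaaH and 44.0% ± 2.78 in WT, with the further desaturase gene DES3 not counted. These 3 shares did not overlap between the groups. Each had p = 0.1 in a two-sided exact permutation test, the smallest p that 3 libraries against 3 allow, and an adjusted p of 0.367 over the 11 shares tested with it. With ACP5 counted in the family, an alternative chosen after seeing the data, ACP1 held 19.4% ± 0.222 in DD25::IaaH and 26.0% ± 1.93 in WT (SD, n = 3 each), still apart. ACP2 then held 48.0% ± 2.53 in DD25::IaaH and 47.0% ± 2.95 in WT (SD, n = 3 each), with overlap, so its difference rests on leaving ACP5 out. The shares of the E1 beta, BCCP, ACP3, ACP4, AAD5, AAD1, dehydratase and FATA genes overlapped, with exact permutation p of 0.2 to 0.9. FATA1 held 60.8% ± 3.89 of the FATA transcripts in DD25::IaaH and 55.1% ± 3.96 in WT (SD, n = 3 each). Between paralogs of these families, identical stretches of 50 bases were found for ACP2 and ACP3 alone, in 1.45% and 1.21% of their windows, so few reads could belong to either. ACP5 was not part of this comparison.

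**Figure D3:**
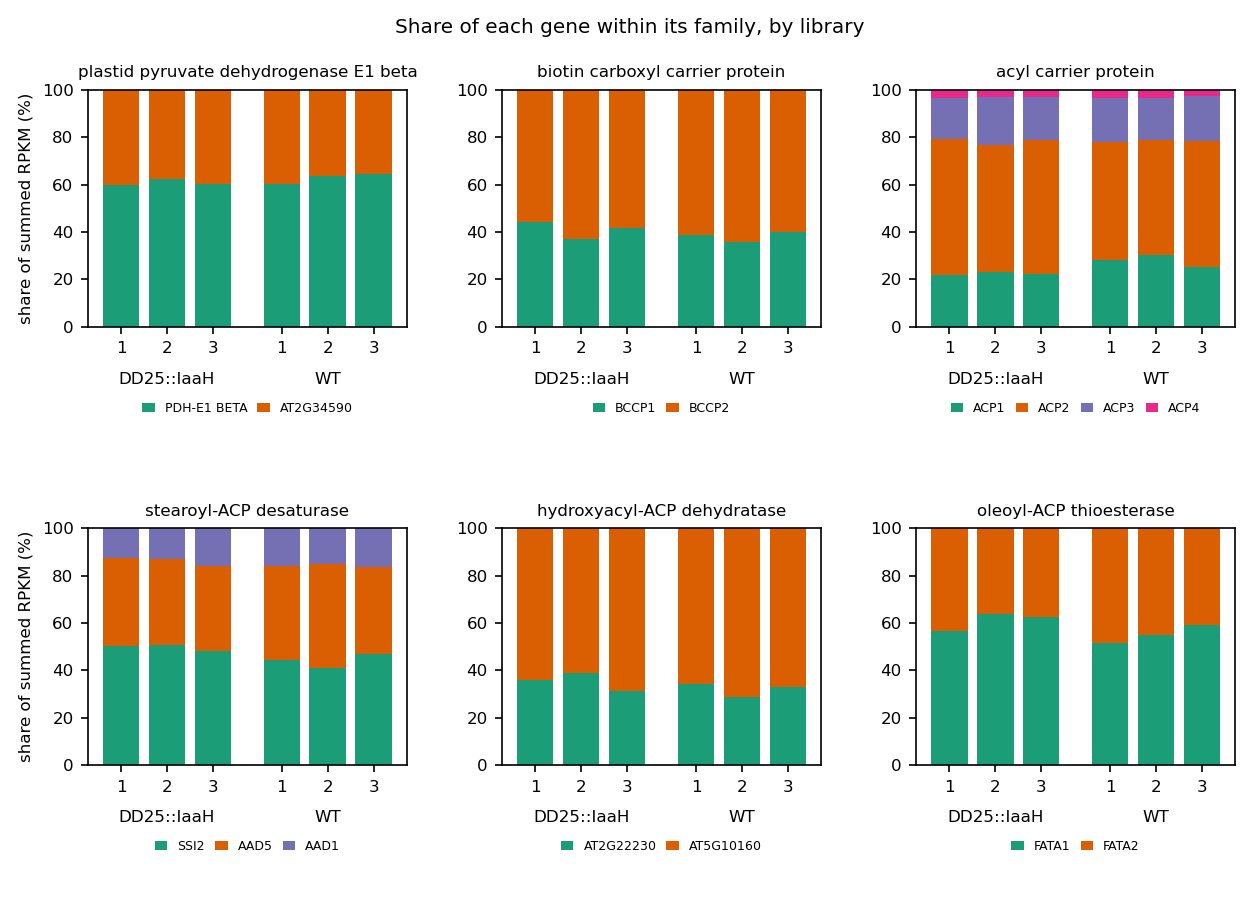
Share of each paralog in the summed RPKM of its family, in percent, with 1 stacked bar per library and DD25::IaaH 1 to 3 left of WT 1 to 3 in each panel. The ACP1 segment is smaller in all 3 DD25::IaaH bars (22.0% to 23.1%) than in the WT bars (25.5% to 30.4%), and the SSI2 segment is larger (48.3% to 50.5%, against 41.1% to 46.7% in WT).

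In the ER, FAE1 (AT4G34520) was the 1 gene of the 35 that rose. It encodes the condensing enzyme that lengthens oleate to the very long chains typical of Arabidopsis seed oil. FAE1 had 51.7, 71.3 and 57.3 RPKM in DD25::IaaH, against 22.6, 26.9 and 5.02 RPKM in WT. Every DD25::IaaH library lay above every WT library, and within WT the third library was far below the other two. The log2 fold change was 1.99 ± 0.51 (SE), with a 95% interval of 0.82 to 3.15 and an adjusted p of 0.0325 in the limma test. Without WT 3 the log2 fold change was 1.26 with an adjusted p of 0.00109, so WT 3 set much of its size. The call was lost when any 1 DD25::IaaH library was left out, with adjusted p up to 0.105, and also with no filter, no variance trend or a robust fit.

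The 250 bases before the annotated start of FAE1 are shown because the element CATGCA, the RY element that maturation factors of the B3 family such as FUS3 and ABI3 are known to bind, lies in them. They were read from the RefSeq assembly TAIR10.1 at chr4:16493955-16494204 on the plus strand, and capitals mark the element, here in its reverse form TGCATG, at positions -123 to -118 and -93 to -88 before the start.
FAE1 upstream: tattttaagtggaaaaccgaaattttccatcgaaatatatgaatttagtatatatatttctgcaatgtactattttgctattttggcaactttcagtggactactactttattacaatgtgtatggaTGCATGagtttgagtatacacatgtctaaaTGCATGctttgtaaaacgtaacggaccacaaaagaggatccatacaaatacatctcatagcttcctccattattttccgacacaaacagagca
Within 250 bases before to 50 after the start, on both strands, CATGCA was found at 4 of the 8 ER genes (FAE1, ROD1, LPAT2 and PDAT1), at 2 of the 27 plastid genes (AT2G34590 and LACS9) and at 9.72% of 27443 protein-coding genes. This element was looked up after the levels were seen. Of the 4 ER genes with it, FAE1 was called higher and the others were not called. Their log2 fold changes were 1.99 for FAE1, 0.48 for PDAT1, 0.235 for ROD1 and -0.37 for LPAT2. Those of the 2 plastid genes with it were -0.17 for AT2G34590 and -0.16 for LACS9. The part of the element in these levels was not tested.

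The other 3 genes that modify chains in the ER were not called. FAD2 (AT3G12120), the oleate desaturase and by level the main ER gene, had 551, 595 and 549 RPKM in DD25::IaaH, against 522, 575 and 600 RPKM in WT. The groups overlapped fully, and the 95% interval of its log2 fold change ran from -0.285 to 0.285. FAD3, the linoleate desaturase, had 47.2 ± 2.54 RPKM in DD25::IaaH and 55.5 ± 10.5 RPKM in WT (SD, n = 3 each). ROD1 (AT3G15820), which passes desaturated chains from phosphatidylcholine to diacylglycerol, had 30.1, 32.0 and 28.7 RPKM in DD25::IaaH, against 28.9, 32.4 and 17.9 RPKM in WT. As for FAE1, the lowest value was that of WT 3, but the other WT libraries were close to those of DD25::IaaH, and the adjusted p in the limma test was 0.503. FAE1 stood at 0.0938, 0.120 and 0.104 times the level of FAD2 in DD25::IaaH, against 0.0432, 0.0467 and 0.0084 in WT, a ratio also chosen after its values were seen.

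**Figure D4:**
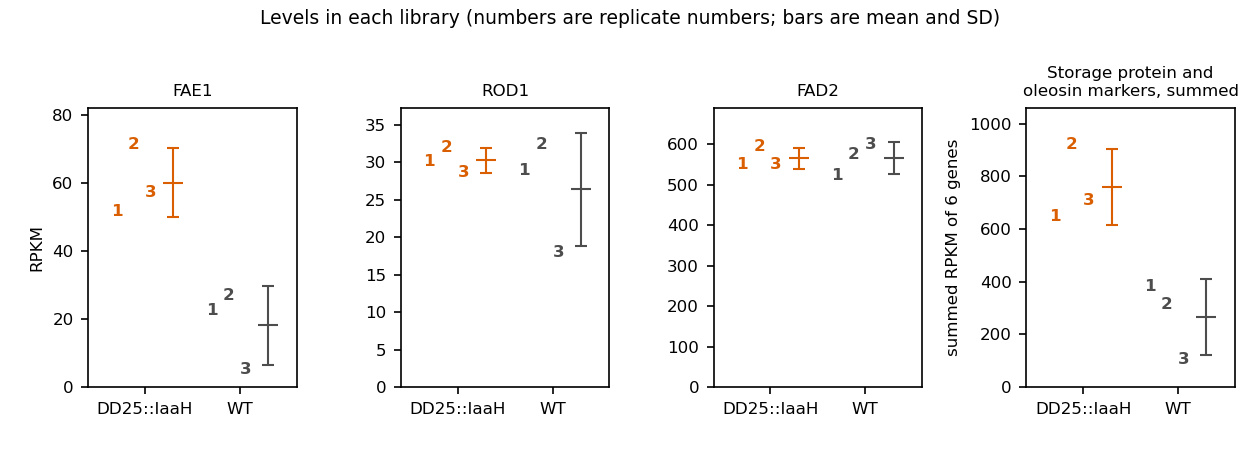
Levels of FAE1, ROD1 and FAD2 in RPKM, and summed RPKM of 6 storage protein and oleosin marker genes, in each library; digits are replicate numbers, and the bar beside them is the mean with its SD, with DD25::IaaH left of WT. WT 3 is lowest for FAE1 (5.02 RPKM), ROD1 (17.9 RPKM) and the summed markers (106 RPKM), and highest of the WT libraries for FAD2 (600 RPKM).

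Triacylglycerol is assembled by 3 acyltransferases in turn, and the first and the last of them fell. GPAT9 (AT5G60620), which places the first chain on glycerol 3-phosphate, had 45.3, 46.3 and 50.4 RPKM in DD25::IaaH, against 72.8, 85.7 and 55.3 RPKM in WT. The groups were apart, although WT 3 lay close to DD25::IaaH 3. The log2 fold change was -0.56 ± 0.16 (SE) with an adjusted p of 0.0489 in the limma test, at the edge of the threshold. The call was made in 8 of 18 alternative settings and was lost when any 1 library other than WT 3 was left out, and GPAT9 overlaps the locus AT5G60630. LPAT2 (AT3G57650), which adds the second chain, had 34.1 ± 3.90 RPKM in DD25::IaaH and 44.0 ± 3.49 RPKM in WT (SD, n = 3 each), with an adjusted p of 0.0976 in the limma test.

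DGAT1 (AT2G19450), which adds the third chain and is known as a main determinant of seed oil, had 22.6, 27.2 and 20.3 RPKM in DD25::IaaH, against 39.0, 40.1 and 32.0 RPKM in WT. The groups did not overlap. Its log2 fold change was -0.66 ± 0.15 (SE) with an adjusted p of 0.0194 in the limma test, and the adjusted p ran from 0.00924 to 0.0799 as single libraries were left out. The call was lost without DD25::IaaH 1, DD25::IaaH 3, WT 1 or WT 2, and the log2 fold change was -0.455 without WT 1 and WT 2 together.

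PDAT1 (AT5G13640) takes the third chain from a phospholipid instead of acyl-CoA, and is known to overlap with DGAT1 in function. It had 9.53, 9.59 and 9.58 RPKM in DD25::IaaH, against 6.02, 6.16 and 8.07 RPKM in WT. All 3 DD25::IaaH libraries were higher, and WT 3 was the nearest to them. The 3 DD25::IaaH values are closer together than counting error alone would place them at the read numbers behind them, which were at most 381 in any library. It was not called in the limma test (adjusted p 0.0829), at a log2 fold change of 0.48 ± 0.16 (SE). The level of DGAT1 over that of PDAT1 was 2.38, 2.83 and 2.12 in DD25::IaaH, against 6.48, 6.51 and 3.97 in WT. DGAT1 was the higher of the pair in all 6 libraries, by less in each DD25::IaaH library; this ratio too was chosen after its values were seen and was not tested.

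Genes around the pathway were followed through 60 further loci from 6 lists, of which 59 were tested: 4 fell (6.78%, against 6.72% of all tested genes), 2 rose (3.39%, against 8.25%) and 53 were not called, with a median log2 fold change of -0.02. The share that fell was thus at the level of all genes. The 6 lists are small, and the calls below are described gene by gene. WRI1 (AT3G54320), the activator of the plastid genes, had 81.5, 95.7 and 87.7 RPKM in DD25::IaaH, against 96.3, 96.3 and 103 RPKM in WT. DD25::IaaH 2 lay just under the lowest WT library, and WRI1 was not called in the limma test (adjusted p 0.386), at a log2 fold change of -0.16 ± 0.11 (SE). Among 13 regulators of seed oil 1 fell and 0 rose. FUS3 (AT3G26790), a B3 factor of seed maturation, had 22.0, 24.3 and 20.4 RPKM in DD25::IaaH, against 38.3, 37.1 and 28.9 RPKM in WT, without overlap. Its log2 fold change was -0.62 ± 0.15 (SE) with an adjusted p of 0.0211 in the limma test. The FUS3 call was lost without DD25::IaaH 1, DD25::IaaH 3, WT 1 or WT 2, with adjusted p up to 0.085. Without WT 1 and WT 2 together its log2 fold change was -0.37.

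Plastid pyruvate kinase, which makes the pyruvate that the plastid pyruvate dehydrogenase uses, fell at both its alpha and a beta subunit. PKP-ALPHA (AT3G22960), its alpha subunit, had 94.1, 98.6 and 80.4 RPKM in DD25::IaaH, against 205, 213 and 195 RPKM in WT. The groups were far apart in every library. The log2 fold change was -1.17 ± 0.12 (SE) with an adjusted p of 0.000237 in the limma test, and the gene was called in all 18 alternative settings that held it. PKP-BETA1 (AT5G52920), a beta subunit, averaged 188 ± 13.5 RPKM in DD25::IaaH and 282 ± 30.2 RPKM in WT (SD, n = 3 each), and its adjusted p in the limma test was 0.0155. The call on PKP-BETA1 was lost without DD25::IaaH 1, DD25::IaaH 3, WT 1 or WT 2, with adjusted p up to 0.0692. Its log2 fold change was -0.58, and -0.405 without WT 1 and WT 2 together. These were the 2 that fell among 11 genes of carbon supply to the plastid (18.2%), and 0 rose. Both lie inside the near-absent ranges, where 11.9% of tested genes fell, the genes that set the ranges included.

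Among 6 other carboxylase genes 1 fell and 1 rose. GLB1 (AT4G01900), the PII protein that binds the carboxylase through its biotin carrier, had 81.6, 111 and 122 RPKM in DD25::IaaH, against 300.1, 264 and 149 RPKM in WT. The groups were apart, though the WT libraries differed widely. Its log2 fold change was -1.14 ± 0.26 (SE) with an adjusted p of 0.0196 in the limma test. The GLB1 call was lost without DD25::IaaH 1, DD25::IaaH 2, WT 1, WT 2 or the variance trend, with adjusted p up to 0.0766 over the single libraries. With both WT 1 and WT 2 left out its log2 fold change was -0.52, and GLB1 overlaps the locus AT4G01897. ACC2 (AT1G36180), a single-chain carboxylase that enters the plastid, rose and averaged 4.13 ± 1.38 RPKM in DD25::IaaH and 1.72 ± 0.086 RPKM in WT (SD, n = 3 each), with an adjusted p of 0.0305 in the limma test. The ACC2 call was lost in 7 of 19 alternative settings, among them no filter and the replicate block. It was also lost without DD25::IaaH 1, DD25::IaaH 2, WT 1 or WT 2, with adjusted p up to 0.1 over the single libraries. ACC2 was far under the level of CAC2 in all libraries. It shares 1.36% of its 50-base windows with its paralog ACC1 (AT1G36160). ACC1 averaged 33.1 RPKM in DD25::IaaH and 24.8 RPKM in WT and was not called. How reads that match both genes were assigned is not given in the sources used here.

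Among 11 other genes of the acyl chain 1 rose and 0 fell. ACP5 (AT5G27200), a further plastid acyl carrier protein, had 215, 274 and 324 RPKM in DD25::IaaH, against 155, 160.2 and 91.2 RPKM in WT. Every DD25::IaaH library was higher than every WT library. The log2 fold change was 1.02 ± 0.24 (SE) with an adjusted p of 0.0199 in the limma test, and ACP5 overlaps the locus AT5G27210. Its call was lost without DD25::IaaH 2, without DD25::IaaH 3 and without the variance trend, with adjusted p up to 0.0818. Of 13 tested genes of other glycerolipid synthesis and 5 of oil breakdown, 0 were called in the limma test, with 4 and 1 at an unadjusted p under 0.05. FUS3, PKP-ALPHA, PKP-BETA1, GLB1 and WRI1 lie inside the ranges of loci described above, and ACC2 and ACP5 lie outside them.

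The AW-box, written CNTNG, then 7 bases of any kind, then CG, was found on either strand within 250 bases before to 50 after the start of 6 of the 35 genes (17.1%), all of them among the 27 plastid genes (22.2%), and at 11.9% of 27443 protein-coding genes. The 6 sites are shown because WRI1 is known to bind this element in plastid genes of this pathway, with the element in capitals and up to 8 bases on each side, read along the gene from RefSeq TAIR10.1.
PDH-E1 ALPHA: gaaaaaaaCATTGGTGTTAACGaagaaggg
PDH-E1 BETA: catgagttCGATGAAAACAATGtaaacatg
CAC3: aggagtcaCGTGGGCACGTGCGagagagca
ACP1: ttcacgctCTTTGTACACTCCGccctctct
AT2G22230: acacaaacCTTTGTACTCTCCGctc
LACS9: aataagagCGTTTTGTGCAATGagaattgg
The PDH-E1 BETA and LACS9 elements read on the opposite strand. Of the 6 genes with a match CAC3 was called lower and the other five were not called, while 5 of the 6 genes that fell had no match in this window. A match is a match of letters, and none of these sites was measured here.

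Marker genes of seed tissues also differed between the genotypes. The RPKM summed over 5 embryo markers was 63.8 to 74.7 in DD25::IaaH and 75.5 to 93.3 in WT, with 1 of the 5, WOX9, lower in the limma test and WOX2 at 0 in 1 library. Summed over 6 endosperm markers it was 127 to 163 in DD25::IaaH and 63.1 to 81.8 in WT, with AGL62, PHE1 and FWA higher and ZOU, ALE1 and MEA not called. PHE1 carried this difference: without it the sums were 64.3 to 77.8 in DD25::IaaH and 60.5 to 76.9 in WT. Summed over 6 seed coat markers it was 1112 to 1227 in DD25::IaaH and 1008 to 1255 in WT, with BAN, TT12 and TT2 higher and TT10 lower. Summed over 6 storage protein and oleosin genes, which mark the onset of maturation, it was 647, 921 and 710 in DD25::IaaH, against 383, 313 and 106 in WT, and 5 of the 6 rose. FAE1 and the summed storage genes were both higher in every DD25::IaaH library and lowest in WT 3, whereas the summed plastid genes were lower in every DD25::IaaH library. Pollen and root markers stayed at or under 3.48 and 2.05 summed RPKM in all 6 libraries. The part of these tissue differences in the levels of the oil genes was not tested.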

How the data were processed

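Polyadenylated RNA was sequenced as paired reads on a HiSeq2500, per the labels' protocols. TopHat2 2.1.0 and TAIR10 are named in the submitters' processing notes. The authors deposited RPKM, which scales reads to library size and gene length, in 6 libraries for 33323 loci. For the counting tool and its use of strand: not given in the sources used here. The authors' own DESeq results, per the labels' protocols, were not analysed here.

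The 20880 genes averaging 0.5 RPKM or above were tested on log2(RPKM + 0.5) with limma 3.58.1 in R 4.3.3 (eBayes with a variance trend, genotype as the one term). Tests were two-sided and adjusted over all 20880 genes after Benjamini and Hochberg, with calls at an adjusted p under 0.05. SD is over 3 libraries per genotype, described as biological replicates. SE is limma's moderated standard error, with a variance pooled over both genotypes and drawn toward the trend over all tested genes. The pseudocount understates changes of low genes. In simulated data, with the same dispersion for all genes and few genes changed, 13.5% of calls were false.

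The genes and lists were chosen with earlier results of these data known. Values per library are given for each called gene, the highest gene of each step and WRI1, and elsewhere for up to 4 called genes per list. FATB, FAD3, ROD1, PDAT1 and further genes named with means were added after their values were seen. Of the further lipid loci 60 were kept. Dropped were 3 (ACCD, AAD6 and SDP1L), whose locus had no row or whose symbol the reference did not give.

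Depth was rebuilt from RPKM steps: 47.0% to 64.0% of low values were whole reads within 0.02 reads, against 0.648% to 1.18% with the depth shifted by 3%. Depth covers counting error only. Locus identifiers were matched to RefSeq TAIR10.1 for 32835 loci, which gave names, overlaps and sequences. Near-absent ranges span, per chromosome, genes whose WT libraries all reached 3 RPKM and whose DD25::IaaH libraries were all under the lowest WT value divided by 15. Alternatives changed the pseudocount, filter, scaling, variance model, replicate block, count model and libraries.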

Additional observations from a re-analysis of the deposited data

How the results depend on the processing

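Over the alternatives tried, the median log2 fold change of the 35 genes stayed between -0.34 and -0.22, and 28 to 31 of the 35 were below 0 (22 of 27 outside the near-absent ranges). Counts of calls moved more. The 6 that fell became 10 with quantile normalisation, 1 without WT 1 and WT 2 together and 1 outside the near-absent ranges. The 1 that rose became 0 with no filter, without the variance trend and with robust eBayes, and 2 with limma voom on rebuilt reads. The count was 0 outside the ranges because FAE1 lies inside them and was left out of that run. MOD1, FATA1, FATA2 and GPAT9 were left out too, so of the 6 that fell that run tested CAC3 and DGAT1 alone. CAC3 lost its call there, with an adjusted p of 0.053 in the limma test. FUS3, PKP-ALPHA, PKP-BETA1 and GLB1, the other lipid genes that fell, were also left out of that run. Of the other lipid genes, the 2 that rose became 1 with no filter, without the variance trend, under the replicate block and without WT 1 and WT 2. The 4 that fell became 1 without WT 1 and WT 2 and 0 outside the ranges. Over all genes, calls were 1063 without WT 1 and WT 2 and 1434 outside the ranges. With single libraries left out, calls ran from 1912 to 4133 over all genes, 3 to 11 of the 35 fell and 0 to 2 rose, and 1 to 5 of the other lipid genes fell and 0 to 6 rose; the highest counts came without WT 3. The causes were not tested.

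Replicate numbers did not pair the libraries: correlations of same-numbered deviations were -0.08, -0.031 and -0.101. Under the replicate block 2429 genes were called, and of the 35 genes 4 fell and 1 rose. No value of a single gene past the threshold changed its direction in any of these alternatives. In 2 alternatives chosen after seeing the data, some differences in paralog share moved by more than an SD. Without WT 1 and WT 2 that of ACP1 was -2.97 points, ACP2 2.70, ACP4 0.53, FATA1 1.61 and FATA2 -1.61, and with ACP5 in the family that of ACP2 was 1.01. Precision is limited by 3 libraries per genotype and, for genes with few reads, by depth.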
